A study of Mus musculus with 9 samples.

Results

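The constitutive proteasome subunit genes, with the assembly chaperones and regulators that share their naming, were taken from the table of counts by symbol alone, as each row named Psma to Psmg with a number, leaving out the 3 immunoproteasome genes Psmb8, Psmb9 and Psmb10. This gave 46 of the 23413 genes in the table, and 45 of them had enough counts to enter the test of 11393 genes. The rule itself used no measured value, but it was chosen with earlier results of these data known. By role, there were 7 alpha ring genes, 7 beta ring genes, 6 ATPases and 3 other subunits of the base, 8 lid subunits, 3 chaperones of the base, 4 activators, 1 inhibitor, 4 chaperones of the core and 3 other symbols. Of the last 3, Psma8 is the testis form of an alpha subunit, Psmb11 is the thymus form of a beta subunit, and Psmc3ip is a meiotic recombination factor that matched by its symbol only.

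The proteasome is the particle that takes apart proteins tagged with ubiquitin. Its core is a barrel with outer rings of alpha subunits and inner rings of beta subunits, some of which cut the protein chain. A cap with a ring of ATPases at its base and a lid above it receives the tagged protein, removes the ubiquitin and threads the chain into the core. In macrophages, interferon signalling exchanges the cutting subunits for immunoproteasome forms and adds the PA28 activator, which favours peptides for MHC class I.

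RNA-seq was done on macrophages sorted as F4/80+CD11b+ cells from livers of male C57BL/6 mice, with a Gr1low gate added in the study's methods. There were 2 libraries from mice on a normal diet (ND), 3 from mice on a high-fat diet (HFD) injected with vehicle (HFD_Veh) and 4 from HFD mice injected with diphenyleneiodonium (HFD_DPI), which the study uses as an agonist of the receptor GPR3. Diets began at 5 weeks of age and lasted 8 weeks, and DPI was given at 2 mg/kg every 5 days from week 3. Each library is labelled as a separate mouse, while the study's figure legend gives more mice per group than there are libraries. Whether each library holds a single mouse is therefore not settled, and p-values measure only the spread between these few libraries. The treatment field of the labels describes instead purified cells exposed to DMSO or to 500 nM DPI for 24 h, and the design text was followed here. The labels give no treatment for ND, so high-fat diet and vehicle injection cannot be told apart in HFD_Veh against ND. DPI reached the whole animal, so the groups do not separate an action on macrophages from one on other tissues.

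Library totals lay between 3534325 and 15585775 counts, and the ribosomal RNA precursor Rn45s took 27.0% to 44.5% of them. The proteasome genes took 0.245% to 0.386% of all counts, and 42 to 45 of the 46 had at least 10 counts in a library. A count of 3, taken as the smallest told apart from 0, was 0.184 to 1.02 CPM (counts scaled to a common library total by the TMM method), and this covers counting error only. General macrophage markers summed to 15231 to 44115 CPM over 7 genes, most of it from Lyz2, while Mertk had 10 to 215 counts. The 6 Kupffer cell markers summed to 0.729 and 72.1 CPM in ND, 0 to 19.8 in HFD_Veh and 2.04 to 57.9 in HFD_DPI, with Marco at 0 in every library but 1. The cells are therefore called liver macrophages here. Hepatocyte markers (7 genes) summed to 112 and 189 CPM in ND against 14.9 to 43.9 in HFD_Veh and 28.5 to 84.6 in HFD_DPI. Sinusoidal endothelium markers (5 genes) summed to 116 and 169 CPM in ND, 6.44 to 9.99 in HFD_Veh and 4.27 to 123 in HFD_DPI. No gene of the hepatocyte and endothelium lists was at 0 in all libraries of a group. Monocyte markers (2 genes) summed to 955 and 967 CPM in ND, 1159.98 to 1325 in HFD_Veh and 861 to 2204 in HFD_DPI. B cell markers (4 genes) summed to 14.9 and 65.6 CPM in ND, 93.2 to 175 in HFD_Veh and 15.6 to 397 in HFD_DPI. Eosinophil markers (4 genes) summed to 96.3 and 68.2 CPM in ND, 52.0 to 66.1 in HFD_Veh and 30.1 to 169 in HFD_DPI. Neutrophil markers (6 genes) summed to 679 to 4999.98 CPM over all libraries. Since these were bulk libraries, fewer cells of a type and less RNA per cell cannot be told apart.

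Promoters are shown for 4 genes on which the results turn, the ATPase gene with the smallest p against ND, a pair of cutting subunits and the most abundant gene, with motif letters in capitals. The sequences are from RefSeq on GRCm38.p6, where 38 of the 46 genes had 41 promoters between them, and positions count from the annotated start, which is base 1. The motif TGACNNNGC is that of the antioxidant response element, bound by the transcription factors encoded by Nfe2l1 and Nfe2l2. The first of these raises proteasome genes when the proteasome is inhibited. Psmc6, an ATPase of the base, carries the motif on the minus strand (chr14:45329574-45329787, plus strand, bases -250 to -37 shown).
Psmc6: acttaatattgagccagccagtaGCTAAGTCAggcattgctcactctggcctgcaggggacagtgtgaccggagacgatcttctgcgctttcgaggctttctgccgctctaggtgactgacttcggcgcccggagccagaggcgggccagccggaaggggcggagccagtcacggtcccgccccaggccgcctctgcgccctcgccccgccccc
Psmb5 and Psmb6, which encode cutting subunits, carry it on their own strand near the start (chr14:54618024-54618145, minus strand, bases -150 to -29, and chr11:70525207-70525356, plus strand, bases -150 to -1).
Psmb5: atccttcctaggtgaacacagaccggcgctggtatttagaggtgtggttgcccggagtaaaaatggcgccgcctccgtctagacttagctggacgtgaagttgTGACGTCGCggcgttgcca
Psmb6: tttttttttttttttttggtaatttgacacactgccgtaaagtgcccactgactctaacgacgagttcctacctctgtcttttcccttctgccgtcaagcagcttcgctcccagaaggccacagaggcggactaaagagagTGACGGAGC
Psme1, which encodes an alpha subunit of PA28, has the core of an interferon-stimulated response element, GAAA repeated after a gap of 2 bases, on the minus strand just after its start (chr14:55578483-55578512, plus strand, bases -11 to 19).
Psme1: gtgcaggtttcgagctgtgcTTTCGCTTTC
Searched on both strands of 250 bases before to 50 bases after each start, TGACNNNGC was found in 6 of the 41 promoters (14.6%), those of Psmb5, Psmb6, Psmc6, Psmd12, Psmd9 and Psme4, and in 12.4% of all 32851. The motif CCAAT was found in 14 (34.1%), against 37.4% of all. The interferon core was found in 5 (12.2%), those of Psmb3, Psmd4, Psmd9, Psme1 and Psmg4, against 3.44% of all. A match describes the letters only and is not shown to be a site.

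Summed over the 46 genes, the level was 2610.06 and 2940.35 CPM in ND, 3217.87, 3361 and 2989 in HFD_Veh and 3684, 3552, 3438 and 2781 in HFD_DPI. The group means were 2775 ± 234 (SD, n = 2), 3189 ± 187 (SD, n = 3) and 3364 ± 401 (SD, n = 4) CPM. On this scale HFD_Veh lay above ND, while an HFD_DPI library lay within the ND range. As a share of all counts the groups overlapped, with 0.307% and 0.328% in ND and 0.318%, 0.336% and 0.245% in HFD_Veh. Levels of different genes are compared as CPM per kb of transcript, averaged over the 9 libraries. On that scale the highest gene was Psme1, at 472, followed by the alpha ring gene Psma7 at 233. Within the beta ring the range ran from 128 for Psmb3 to 41.0 for Psmb7, and within the alpha ring Psma2 was lowest at 40.1. Among the base ATPases, Psmc3 (52.4) was highest and Psmc6 (18.3) lowest. Psmd4, a ubiquitin receptor, had 72.3 and the scaffold Psmd1 8.33. In the lid, Psmd8 had 86.3 and Psmd12 18.1. The chaperones ran from 14.7 for Psmd10 to 2.58 for Psmd5 at the base, and from 39.2 for Psmg4 to 6.72 for Psmg1 at the core. Psmf1, the inhibitor PI31, had 9.99, and Psme4, the nuclear activator PA200, had 2.63. These levels rest on transcript lengths from GENCODE M21, and other ranks depend on them. With the joined length of all exons Psme1 was still highest, but Psma7 was at rank 5 (78.7) with Psma6 (85.1) above it, and Psmb3 (42.6) was below Psmb2 (80.7). On that length Psmc5 (38.0) was the highest ATPase, above Psmc3 (32.9), and Psmc2 (6.90) the lowest, and Psmd11 (8.92) was the lowest of the lid.

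**Figure D1:**
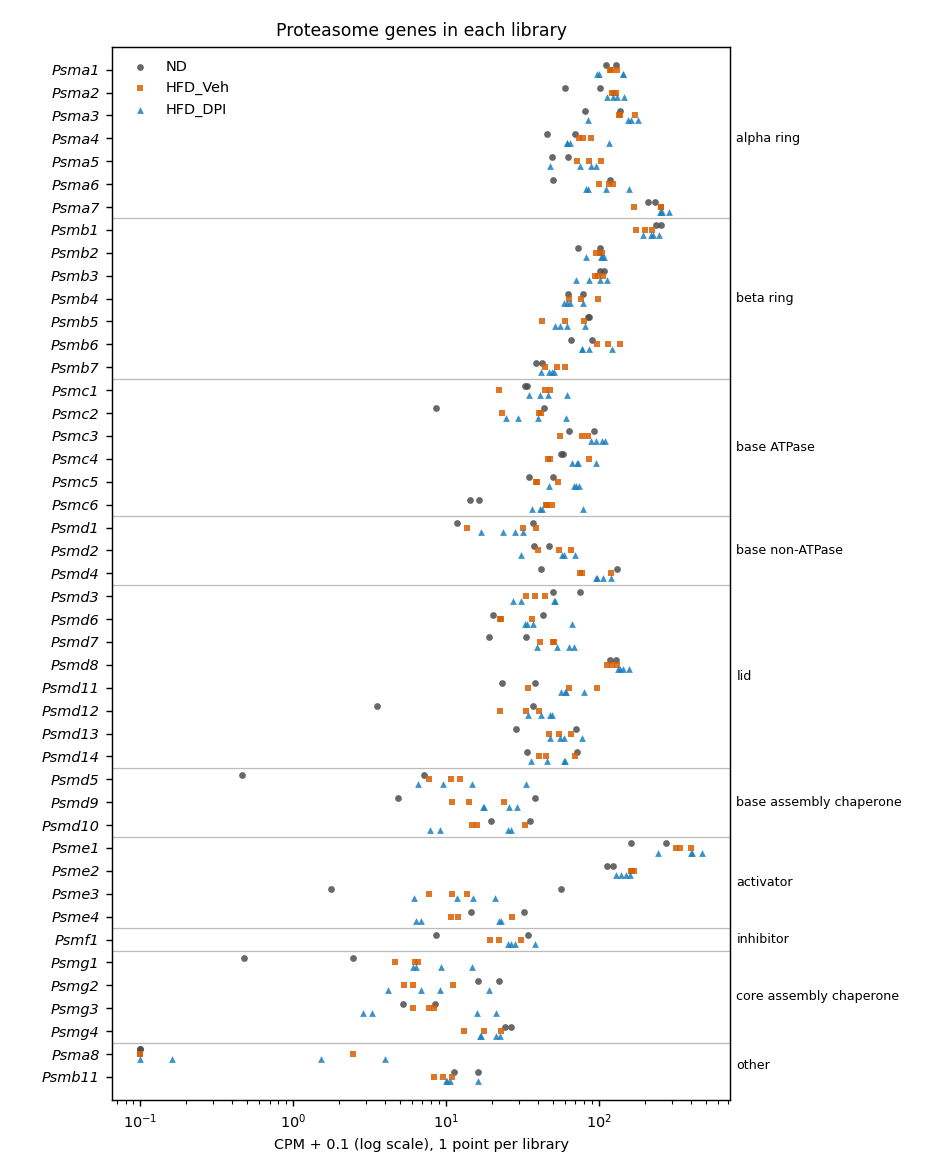
Level of the 45 tested proteasome genes in each of the 9 libraries, as CPM plus 0.1 on a log scale, grouped by role, with circles for ND, squares for HFD_Veh and triangles for HFD_DPI. The ND circles lie far apart for Psme3, Psmd5, Psmd12, Psmd9, Psmc2 and Psmg1.

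The tissue-restricted symbols were low. Psma8 had 0 and 0 counts in ND, 0, 13 and 0 in HFD_Veh and 1, 0, 21 and 14 in HFD_DPI. It was above 3 counts in 1 HFD_Veh and 2 HFD_DPI libraries. It entered the test through its HFD libraries only and counts among the genes above 0 in each comparison below. With 3 counts put in for each ND library, the mean was 1.42-fold higher in HFD_Veh and 2.43-fold higher in HFD_DPI. That mean was carried by 1 library in HFD_Veh and 2 in HFD_DPI. The unadjusted p against ND was 0.134 for HFD_Veh and 0.0944 for HFD_DPI by edgeR. Psmb11 had 88 and 60 counts in ND, 37, 60 and 38 in HFD_Veh and 164, 29, 57 and 158 in HFD_DPI. For the library totals it was highest in an ND and an HFD_DPI library. Psmc3ip failed the filter on low counts, with 0 and 0 counts in ND, 0, 0 and 5 in HFD_Veh and 0, 2, 1 and 0 in HFD_DPI. No difference was detectable for it at this depth.

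HFD_Veh was compared with ND to ask what the high-fat diet with vehicle did to these genes. The ATPase gene Psmc6 was the clearest, 3.05-fold higher on average in HFD_Veh, followed by the lid genes Psmd11 and Psmd7, and no proteasome gene had an adjusted p under 0.05. By edgeR's quasi-likelihood test, 3 of the 45 genes had an unadjusted p under 0.05 and were higher, where 7.76% of all genes were, and none was lower, where 5.22% of all were. At an adjusted p under 0.05 the background was 0.0614% higher and 0% lower, and with DESeq2, by which 312 of all genes passed, 1 proteasome gene, Psmc6, did (log2 fold change 1.58, adjusted p = 0.0255 with Benjamini-Hochberg adjustment). At the study's threshold, an unadjusted p under 0.05 with a fold of at least 2, 2 genes were higher (background 7.03%) and none lower (background 4.63%). Thus the share of genes past these thresholds was near or below that of all genes. The summed hepatocyte, sinusoidal endothelium and eosinophil markers were higher in both ND libraries than in every HFD_Veh library, and the summed monocyte and B cell markers were lower. Single genes did not all follow their sum, such as the endothelial Pecam1, with 5 and 6 counts in ND and 39, 50 and 7 in HFD_Veh. Of the 2 monocyte genes, Ly6c2 followed the sum, while Ccr2 had 2820 and 1920 counts in ND and 853, 1229 and 592 in HFD_Veh. The eosinophil sum in these libraries was nearly all Ear2, with Prg2, Epx and Ear1 at 0 or 1 count in ND. The part of these cells in the differences was not tested.

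Psmc6 (ENSMUSG00000021832.8, GRCm38 chr14:45329788-45349705, plus strand) encodes an ATPase that unfolds the substrate. It had 16.4 and 14.2 CPM in ND, 45.1, 49.3 and 45.6 in HFD_Veh and 78.3, 42.1, 41.00 and 36.3 in HFD_DPI. Every HFD library lay above both ND libraries, and 1 HFD_DPI library stood above the rest. The difference between HFD_Veh and ND was 1.61 ± 0.43 (log2 fold change and its standard error, unadjusted p = 0.00235, adjusted p = 0.175 by edgeR with Benjamini-Hochberg adjustment). Leaving out single libraries gave log2 fold changes of 1.54 to 1.73, and the unadjusted p stayed under 0.05 in all 17 other settings (scalings, filters, tests and each library left out in turn), with 0.0150 the highest.

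Psmd11 (ENSMUSG00000017428.16, chr11:80428615-80473248, plus strand) encodes a scaffold of the lid. It had 38.1 and 23.2 CPM in ND, 63.3, 97.8 and 34.4 in HFD_Veh and 59.6, 60.8, 79.4 and 56.1 in HFD_DPI. The lowest HFD_Veh library lay below an ND library, so the groups overlapped. The difference was 1.09 ± 0.45 (log2 fold change and its standard error, unadjusted p = 0.0288, adjusted p = 0.339 by edgeR with Benjamini-Hochberg adjustment), and it fell to 0.68 (unadjusted p = 0.142 by edgeR) without HFD_Veh 2 and 0.81 (unadjusted p = 0.159) without ND 2.

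Psmd7 (ENSMUSG00000039067.5, chr8:107580381-107588464, minus strand) encodes the lid partner of the deubiquitinating subunit. It had 19.1 and 33.2 CPM in ND, 50.8, 50.2 and 41.1 in HFD_Veh and 69.2, 64.2, 53.4 and 39.4 in HFD_DPI. The HFD libraries lay above both ND libraries without overlap. The difference was 0.86 ± 0.39 (log2 fold change and its standard error, unadjusted p = 0.0483, adjusted p = 0.382 by edgeR with Benjamini-Hochberg adjustment). It was 0.52 (unadjusted p = 0.285 by edgeR) without ND 1 and 1.34 without ND 2, and the unadjusted p was above 0.05 in 12 of those 17 settings, among them leaving out any library other than ND 2, HFD_Veh 3 or HFD_DPI 4.

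**Figure D2:**
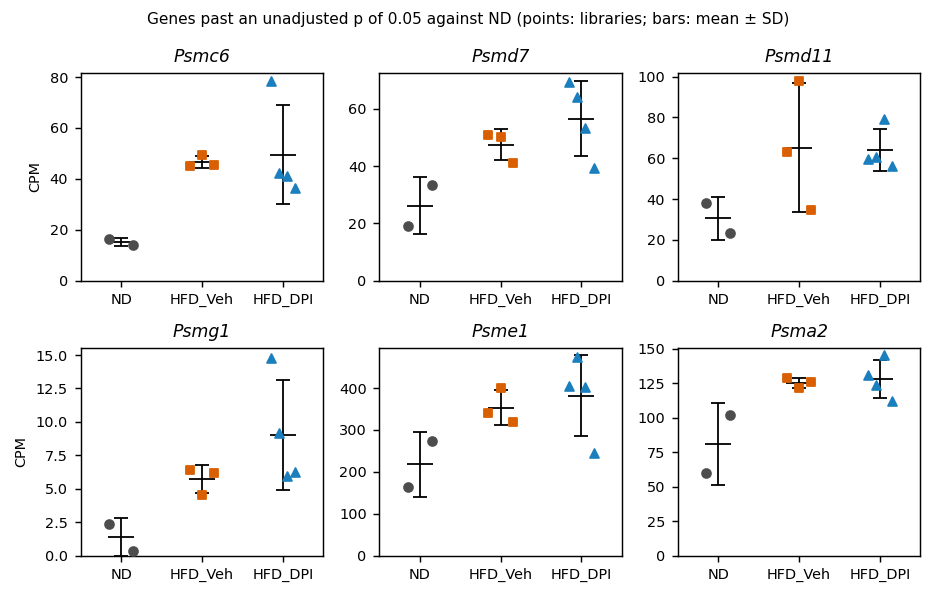
CPM of the 6 proteasome genes with an unadjusted p under 0.05 against ND in either HFD group, with 1 point per library and bars for the mean ± SD of each group (2, 3 and 4 libraries). For Psmc6 the ND libraries sit at 16.4 and 14.2 CPM and every HFD library at 36.3 or above.

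Besides Psmc6 and Psmd7, which are counted again here, several genes stood apart without reaching that p. HFD_Veh libraries did not overlap the ND libraries for 11 proteasome genes that were higher (background 15%) and for 6 that were lower (background 12.5%). The 11 were Psma2, Psma4, Psma5, Psmb6, Psmb7, Psmc6, Psmd5, Psmd7, Psme1, Psme2 and Psmg1. The 6 were Psmb1, Psmb5, Psmd3, Psmg2, Psmg4 and Psmb11. When libraries were scaled by their totals only, 2 were higher (10.1% of all genes) and 8 lower (19.2% of all genes). Over the 45 genes, 30 log2 fold changes were above 0 (background 51.5%) and 18 with totals only. The proteasome genes had a median of 0.17 with TMM and -0.09 with totals only, beside 0.03 and -0.26 over the 11393 genes tested, which leaves gaps of 0.14 and 0.16. Without ND 1 the proteasome genes lay at 0.06 and all genes at 0.14, and without ND 2 at 0.37 and 0.29. Without HFD_Veh 2 the proteasome genes lay at 0.084 and without HFD_Veh 3 at 0.29.

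Taken by role, the alpha ring, which gates the core, had its 7 genes above 0, at a median log2 fold change of 0.45. With RLE size factors or library size alone, 5 of the 7 were above 0, and under each of the 3 scalings 5 were above the median of all genes. Psma2 (chr13:14613240-14674236, plus strand) had 59.9 and 102 CPM in ND, 129, 122 and 126 in HFD_Veh and 131, 124, 146 and 112 in HFD_DPI. The HFD_Veh libraries were tightly grouped, whereas the ND libraries were far apart. The difference was 0.63 on the log2 scale (standard error 0.32, unadjusted p = 0.0677 by edgeR), and it was 0.31 to 1.10 with single libraries left out. Summed over the ring, the level was 688 and 773 CPM in ND, 933, 860.0 and 922 in HFD_Veh and 1007, 908, 1017 and 749.8 in HFD_DPI. The lowest HFD_DPI library overlapped ND. Psma7, the highest of the ring per kb of transcript, had 209 and 234 CPM in ND, 255, 169.9 and 253 in HFD_Veh and 288, 251, 255 and 259 in HFD_DPI, and its log2 fold change was 0.03 (standard error 0.28).

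The beta ring had 4 of 7 genes above 0 and a median of 0.18, and 2 of 7 and a median of -0.09 with library size alone. In HFD_DPI against ND its median was -0.09 with TMM. The summed level was 692 and 731 CPM in ND, 702, 758 and 669 in HFD_Veh and 730.01, 739, 643 and 617 in HFD_DPI, and all groups overlapped. Of its cutting subunits, Psmb5 (chr14:54614119-54618022, minus strand), the chymotrypsin-like activity, had 85.8 and 84.4 CPM in ND, 42.2, 79.8 and 60.2 in HFD_Veh and 80.5, 61.5, 51.8 and 56.02 in HFD_DPI. All HFD libraries lay below both ND libraries. The difference was -0.49 on the log2 scale (standard error 0.35, unadjusted p = 0.190 by edgeR). Psmb6 (chr11:70525367-70527858, plus strand), the caspase-like activity, had 89.8 and 66.1 CPM in ND, 114, 138 and 97.9 in HFD_Veh and 78.03, 123, 78.1 and 85.8 in HFD_DPI. HFD_Veh lay above ND, and HFD_DPI overlapped both groups. The difference between HFD_Veh and ND was 0.58 on the log2 scale (standard error 0.34, unadjusted p = 0.107 by edgeR). Psmb7 (chr2:38588036-38644087, minus strand), the trypsin-like activity, had 42.3 and 38.7 CPM in ND, 59.9, 44.3 and 53.03 in HFD_Veh and 49.6, 50.9, 46.9 and 41.9 in HFD_DPI. Its difference was 0.37 on the log2 scale (standard error 0.33, unadjusted p = 0.283 by edgeR), and the HFD_DPI libraries overlapped ND. Psmb3, the highest of the ring per kb of transcript, had 102 and 109 CPM in ND, 107, 93.8 and 98.9 in HFD_Veh and 86.4, 114, 101 and 70.8 in HFD_DPI and overlapped between all groups. Psmb5, Psmb6 and Psmb7 have processed pseudogene copies, and how reads were assigned among such copies is not given. Psmb5 and Psmb7 share 12.1% and 11.8% of their exon bases with other genes, and strand is not given for the counting.

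In the base, 5 of 6 ATPase genes were above 0 with TMM, at a median of 0.13, and 2 of 6 with library size alone. Under each of the 3 scalings, 5 of the 6 were above the median of all genes. The summed level was 214 and 291 CPM in ND and 275, 335 and 279 in HFD_Veh. Psmc3, the highest ATPase per kb of transcript, had 63.6 and 92.4 CPM in ND, 77.7, 55.7 and 84.3 in HFD_Veh and 109.5, 95.4, 104 and 88.98 in HFD_DPI. HFD_Veh and ND overlapped. The scaffold Psmd1 had 36.97 and 11.8 CPM in ND, 31.96, 38.4 and 13.6 in HFD_Veh and 23.5, 31.6, 28.4 and 16.9 in HFD_DPI, and the ubiquitin receptor Psmd4 had 41.7 and 131 CPM in ND, 75.7, 121 and 78.1 in HFD_Veh and 119.9, 106, 97.8 and 95.5 in HFD_DPI. For each, the ND libraries were about as far apart as any libraries in the study.

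In the lid, 4 of 8 genes were above 0, at a median of 0.07, and 3 of 8 with library size alone, at -0.23. Of the 8, 4 were above the median of all genes under each of the 3 scalings. Psmd8, which joins the lid last, had 118 and 130.4 CPM in ND, 131, 113 and 122 in HFD_Veh and 157, 137, 144 and 133 in HFD_DPI, with overlap between HFD_Veh and ND. Psmd3 was among the lower genes, with 75.4 and 50.2 CPM in ND, 33.1, 44.1 and 37.9 in HFD_Veh and 31.01, 51.97, 50.5 and 27.2 in HFD_DPI. Its HFD_Veh libraries lay below ND, and the difference was -0.71 on the log2 scale (standard error 0.40, unadjusted p = 0.0946 by edgeR). With library size alone, Psmd3 and Psmg2 had an unadjusted p under 0.05 (log2 fold changes of -1.01 and -1.62 by edgeR). In that setting 1611 of the 11393 genes tested did, in either direction. Psmd3 and Psmg2 were picked out after their values were seen.

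The activators differed among themselves. Psme1 (chr14:55578123-55581529, plus strand) had 164 and 273 CPM in ND, 340.5, 399 and 319 in HFD_Veh and 405, 473, 403 and 245 in HFD_DPI. Each HFD_Veh library was above both ND libraries. The difference was 0.69 on the log2 scale (standard error 0.34, unadjusted p = 0.0614 by edgeR), and it was 0.38 to 1.14 with single libraries left out. Its partner Psme2 (chr14:55587441-55591113, minus strand) had 124 and 113 CPM in ND, 164, 162 and 169.7 in HFD_Veh and 152, 161, 140.1 and 129.9 in HFD_DPI, also without overlap. The difference was 0.48 on the log2 scale (standard error 0.28, unadjusted p = 0.107 by edgeR), and Psme2 has a close copy, Psme2b, that can share its reads. Psme3 (chr11:101316213-101323537, plus strand), which encodes a nuclear activator made of its own subunit only, had 56.5 and 1.68 CPM in ND, 13.5, 10.9 and 7.68 in HFD_Veh and 6.07, 20.7, 14.8 and 11.7 in HFD_DPI. The ND libraries were farther apart than any other pair of libraries for this gene. The difference between HFD_Veh and ND was -1.44 on the log2 scale (standard error 0.93, unadjusted p = 0.145 by edgeR), and it was 2.67 (unadjusted p = 0.0142) without ND 1 and -2.37 (unadjusted p = 0.00189 by edgeR) without ND 2. Psme4 had 32.1 and 14.4 CPM in ND, 26.9, 10.7 and 11.9 in HFD_Veh and 6.25, 6.79, 22.6 and 22.04 in HFD_DPI, with overlap throughout. Psmf1 had 8.56 and 34.4 CPM in ND, 21.97, 31.01 and 19.3 in HFD_Veh and 28.4, 25.5, 26.5 and 37.9 in HFD_DPI, where ND held the lowest library.

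Psmg1 and Psmg2 encode a pair of chaperones that bind each other and start the alpha ring. Psmg1 (chr16:95979933-95990960, minus strand) had 2.37 and 0.374 CPM in ND, 6.44, 4.53 and 6.19 in HFD_Veh and 14.8, 9.17, 5.94 and 6.22 in HFD_DPI. It was lowest in ND, on 13 and 2 counts. The difference was 2.04 on the log2 scale (standard error 0.97, unadjusted p = 0.0548 by edgeR), and it was 1.29 to 3.88 with single libraries left out. Psmg2 had 16.2 and 22.04 CPM in ND, 5.99, 11.1 and 5.20 in HFD_Veh and 18.9, 6.79, 9.09 and 4.08 in HFD_DPI, which placed ND above HFD_Veh. The difference was -1.36 on the log2 scale (standard error 0.71, unadjusted p = 0.0781 by edgeR). Psmg4 had 24.4 and 26.5 CPM in ND, 22.9, 13.1 and 17.6 in HFD_Veh and 21.1, 22.4, 16.5 and 16.8 in HFD_DPI. All 3 HFD_Veh libraries of Psmg4 lay below ND. Psmd10, a chaperone of the base also known as gankyrin, had 19.5 and 35.3 CPM in ND, 32.6, 15.96 and 14.6 in HFD_Veh and 26.4, 7.81, 9.09 and 25.4 in HFD_DPI, with overlap throughout. Psmd5, another chaperone of the base, had 0.364 and 7.10 CPM in ND, 12.2, 10.7 and 7.68 in HFD_Veh and 33.5, 9.51, 14.7 and 6.43 in HFD_DPI. Its lower ND library stood far below all others, on 2 counts.

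**Figure D3:**
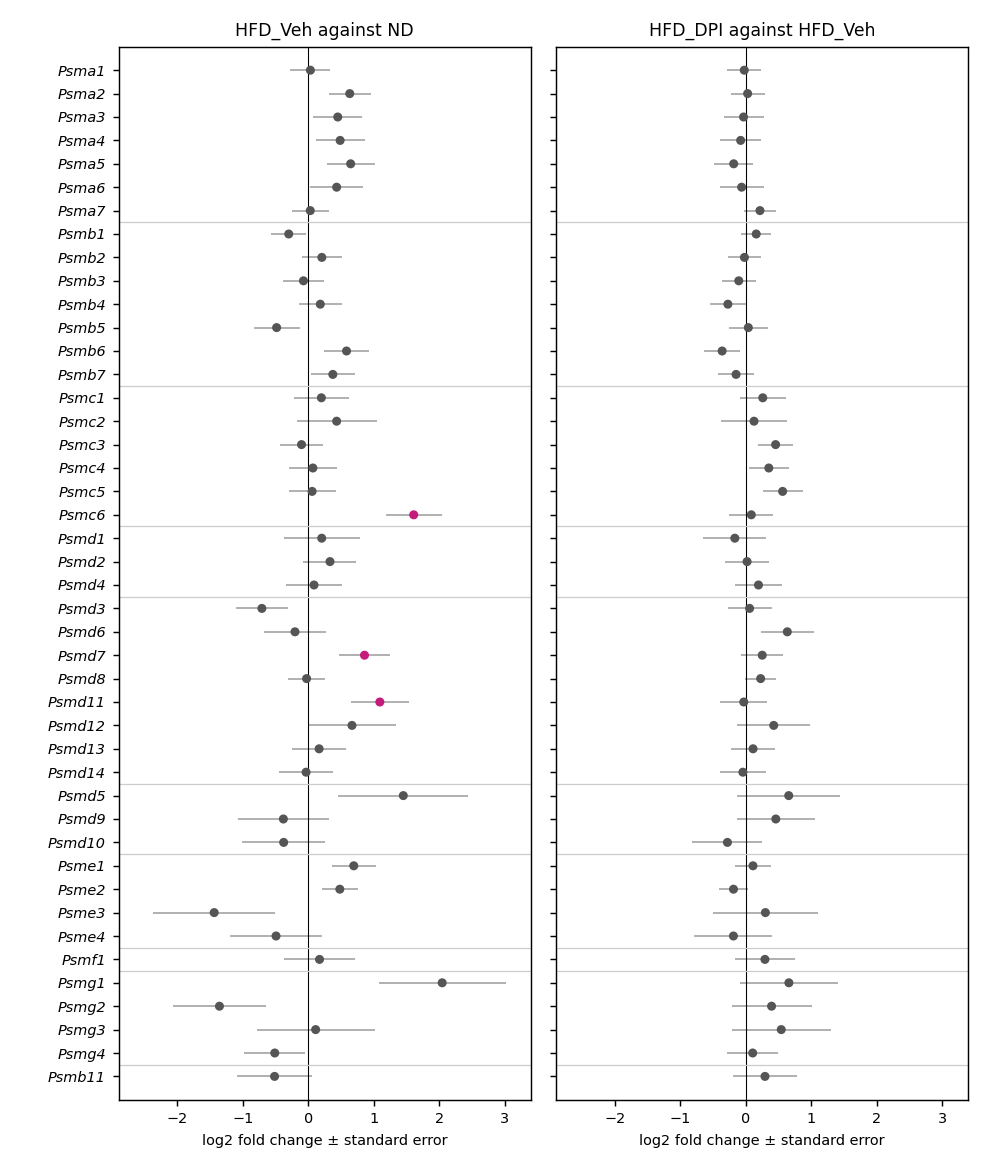
Log2 fold change with its standard error from edgeR for 44 proteasome genes, for HFD_Veh against ND on the left and HFD_DPI against HFD_Veh on the right, with magenta points for an unadjusted p under 0.05; Psma8, at 0 in ND, is not drawn. Psmc6, Psmd7 and Psmd11 are marked on the left and no gene on the right, where 39 of the 45 tested genes lie within 0.5 of 0.

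HFD_DPI was compared with HFD_Veh to ask what DPI did in mice on the same diet. No proteasome gene was past an unadjusted p of 0.05 by edgeR in either direction, where 1.96% of all genes were higher and 2.17% lower. At the study's threshold none was higher (background 1.5%) or lower (background 1.34%). No gene of the 11393 had an adjusted p under 0.05 (0% in each direction, 2 genes with DESeq2), and 470 had an unadjusted p under 0.05. The log2 fold changes of the proteasome genes lay between -0.36 and 0.73, the latter for Psma8 on few counts. Of the 45, 39 (86.7%) were within 0.5 of 0, against 60.5% of all genes. A total of 29 were above 0 (background 53.1%), with a median of 0.11 against 0.04 for all. With library size alone 36 were above 0, and the median was 0.18 (0.12 for all). The median was 0.040 without HFD_DPI 2, 0.056 without HFD_DPI 1, 0.059 without HFD_Veh 3, 0.17 without HFD_DPI 3 or HFD_DPI 4, and 0.20 without HFD_Veh 2. In these mice no proteasome gene differed detectably with DPI, which does not show that the levels were equal.

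All 6 ATPases of the base were above 0 under each of the 3 scalings (53.1% of all genes with TMM), at a median of 0.31 with TMM. They were also above the median of all genes, which was 0.12 with library size alone. Psmc6 was at -0.23 without HFD_DPI 1. Psmc5, with the smallest p and chosen after its values were seen, had 34.8 and 49.7 CPM in ND, 38.6, 53.9 and 39.2 in HFD_Veh and 70.4, 74.4, 68.5 and 46.8 in HFD_DPI. HFD_DPI 4 lay among the HFD_Veh libraries. The difference was 0.56 on the log2 scale (standard error 0.30, unadjusted p = 0.0851 by edgeR), and it was 0.69 (unadjusted p = 0.0383 by edgeR) without HFD_DPI 4. For Psmc3, whose values are given above, all 4 HFD_DPI libraries were above all 3 HFD_Veh libraries. Psmd8 showed the same order. These were the 2 proteasome genes without overlap that were higher (background 3.38%), and Psme2 was the 1 that was lower (background 2.48%), and with library size alone there was 1 higher (3.7% of all genes) and none lower (1.81% of all genes). Summed over the ATPases, HFD_DPI had 429, 406, 362 and 304 CPM, and the lowest of these lay within the HFD_Veh range. Without HFD_Veh 2 the ATPase gene Psmc4 had an unadjusted p under 0.05.

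The 4 chaperones of the core were also above 0 under each of the 3 scalings, at a median of 0.47 with TMM, on low counts. They too were above the median of all genes under each scaling. Psmg2 was at 0.40 on the log2 scale (standard error 0.61), and at -0.17 without HFD_DPI 1. In the lid, Psmd6, chosen after its values were seen, had 20.2 and 42.8 CPM in ND, 22.6, 36.6 and 22.5 in HFD_Veh and 66.3, 32.6, 36.7 and 33.7 in HFD_DPI, with 1 high HFD_DPI library. Its difference was 0.64 on the log2 scale (standard error 0.40, unadjusted p = 0.138 by edgeR). The alpha ring had 2 of 7 genes above 0 with TMM and 6 with library size alone, and the beta ring had 2 of 7 with TMM and 3 with library size alone. Their medians were -0.03 and -0.10 with TMM. Psmb6 had the smallest p among the genes of the core, and its difference was -0.36 on the log2 scale (standard error 0.28, unadjusted p = 0.215 by edgeR). Psmb5 and Psmb7 had log2 fold changes of 0.04 (standard error 0.30) and -0.15 (standard error 0.28). Psmc6, the clearest gene in HFD_Veh against ND, had 0.09 on the log2 scale (standard error 0.34, unadjusted p = 0.802 by edgeR), and -0.23 without HFD_DPI 1.

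**Figure D4:**
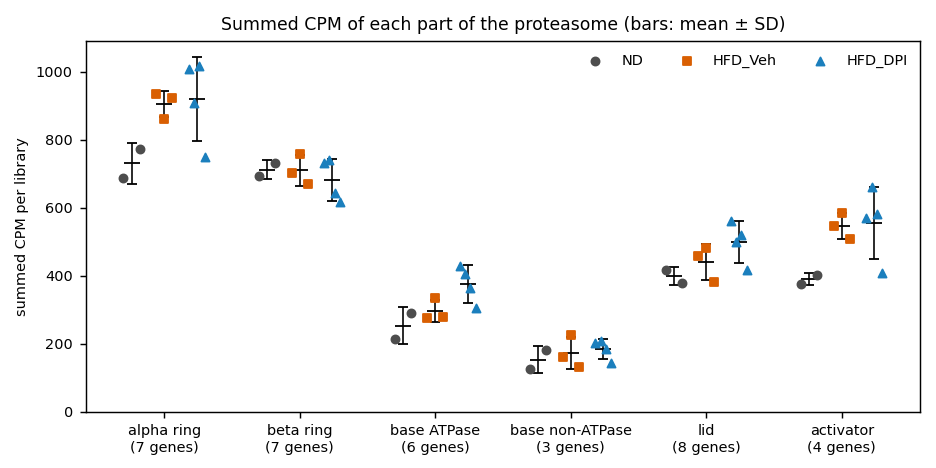
Summed CPM of 6 parts of the proteasome in each library, with bars for the mean ± SD of each group (2, 3 and 4 libraries). Alpha ring and activator sums lie above ND in every HFD_Veh library, while beta ring sums overlap in all groups, and base ATPase sums reach 429 CPM in HFD_DPI.

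HFD_DPI against ND shares its ND libraries with HFD_Veh against ND and its DPI libraries with HFD_DPI against HFD_Veh, so its values are set beside them and are not further evidence. By edgeR, 6 proteasome genes had an unadjusted p under 0.05 and were higher, which is 13.3% of the 45 (background 7.13%), and none was lower (background 3.62%). They were Psmc6, Psmd7, Psmg1, Psmd11, Psme1 and Psma2. No proteasome gene had an adjusted p under 0.05 (background 0.00878% higher, 0% lower), and with DESeq2, by which 219 of all genes passed, Psmc6 did (log2 fold change 1.66, adjusted p = 0.0117 with Benjamini-Hochberg adjustment). At the study's threshold 4 were higher (background 6.24%) and none lower (background 3.05%).

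For Psmc6 the difference from ND was 1.69 ± 0.42 (log2 fold change and its standard error, unadjusted p = 0.00127, adjusted p = 0.175 by edgeR with Benjamini-Hochberg adjustment), beside 1.61 in HFD_Veh. It was 1.11 on the log2 scale (standard error 0.38, unadjusted p = 0.0120 by edgeR) for Psmd7, beside 0.86, and without ND 1 it was 0.78 (unadjusted p = 0.117). For Psmg1 it was 2.70 on the log2 scale (standard error 0.97, unadjusted p = 0.0152 by edgeR), beside 2.04. Without ND 1 it was 4.54, without ND 2 it was 1.96 (unadjusted p = 0.0685), and without HFD_DPI 1 it was 2.35 (unadjusted p = 0.0509 by edgeR). Psmg1 encodes the assembly chaperone above, and its size rests on 13 and 2 counts in ND. Psmd11 had 1.06 on the log2 scale (standard error 0.43, unadjusted p = 0.0271 by edgeR), beside 1.09, and 0.78 (unadjusted p = 0.165) without ND 2 and 0.94 (unadjusted p = 0.0634 by edgeR) without HFD_DPI 3. Psme1 had 0.80 on the log2 scale (standard error 0.33, unadjusted p = 0.0281 by edgeR), beside 0.69. Without ND 1 it was 0.49 (unadjusted p = 0.251), without ND 2 1.25, and without HFD_DPI 2 or HFD_DPI 3 the unadjusted p was 0.0538 and 0.0540. Psma2 had 0.66 on the log2 scale (standard error 0.30, unadjusted p = 0.0481 by edgeR), beside 0.63, and left-out libraries moved it between 0.34 (without ND 1) and 1.13 (without ND 2), with an unadjusted p above 0.05 in 13 of those 17 settings, among them leaving out any library other than ND 2 or HFD_DPI 4.

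HFD_DPI and ND libraries did not overlap for 10 proteasome genes that were higher (background 11.7%) and 2 that were lower (background 8.5%), the latter being Psmb5 and Psmg4. With library size alone these were 4 (8.44% of all genes) and 5 (12.2% of all genes). The median over the 45 genes was 0.29 against 0.04 for all genes, and 33 were above 0 (background 52.1%). With library size alone the medians were 0.085 and -0.17, and 27 were above 0. Without ND 2 the medians were 0.36 and 0.35, so the gap between the proteasome genes and all genes went from 0.25 to 0.0074, and without ND 1 it was 0.072.

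The proteasome genes had a smaller median spread between libraries of a group than all genes tested. Within groups, the SD of log2 CPM (prior count 2) had a median of 0.39 over the 45 genes, 0.76 over all genes tested and 0.57 over the 6368 genes whose mean level lay between the 5th and 95th percentile of the proteasome genes. The proteasome genes were still more abundant than that band, with a mean log2 CPM of 5.64 against 4.50, and the part of abundance in this spread was not tested. Psmd8 and Psme2 were the steadiest, with an SD of 0.10 each, and Psmb1, a non-cutting beta subunit, had 0.15. Psma8 (1.66) and Psme3 (1.51) spread most, followed by Psmd5 (1.24), Psmg3 (1.06) and Psmd12 (1.00).

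**Figure D5:**
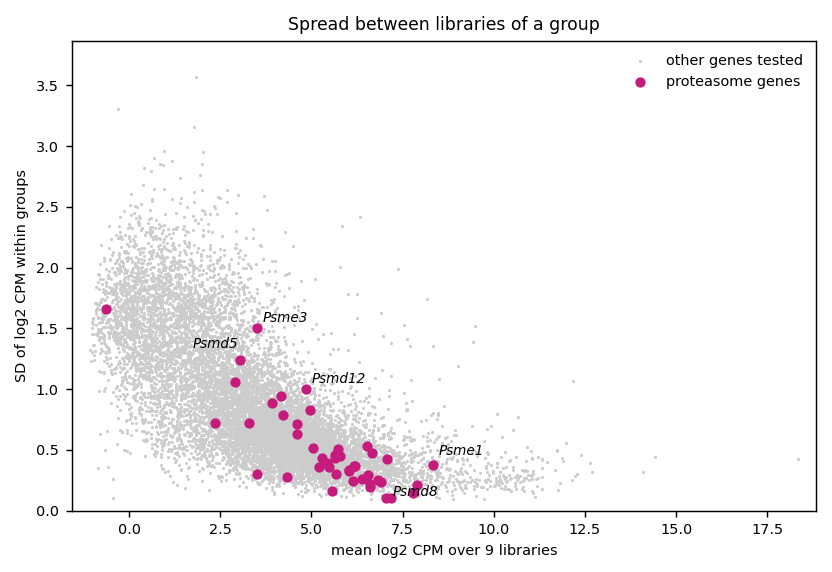
Spread of each tested gene between libraries of a group, as the SD of log2 CPM within groups, against its mean log2 CPM over the 9 libraries, with the 45 proteasome genes in magenta. Most proteasome genes lie in the lower part of the cloud at their level, while Psme3, Psmd5 and Psmd12 lie high in it.

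For some proteasome genes the ND libraries were far apart. On the same log2 scale they were at least 2-fold apart for 14 of 45 proteasome genes (31.1%), against 48.2% of all genes, and at least 4-fold apart for 5 (11.1%), against 26.4%. Psmd12, a lid subunit, had 3.46 and 36.98 CPM in ND, 40.4, 33.2 and 22.5 in HFD_Veh and 41.6, 47.9, 49.2 and 34.3 in HFD_DPI. ND 1 stood alone, and ND 2 lay with the HFD libraries. Psmc2, an ATPase, also had a low ND 1, at 8.56 CPM against 43.7 in ND 2. Psmd9, a chaperone of the base, had 4.74 and 37.9 CPM in ND, below and above every HFD library. Psme3 went the other way, with 56.5 CPM in ND 1 and 1.68 in ND 2. Ranked over the 45 genes, the correlation was 0.777 between the ND libraries, 0.937 to 0.959 among HFD_Veh libraries and 0.919 to 0.955 among HFD_DPI libraries, as a description in which the points share their libraries. Against the HFD libraries it was 0.771 to 0.859 for ND 1 and 0.847 to 0.896 for ND 2, so ND 2 ranked these genes more like every HFD library than like ND 1. Over all 11393 genes the ND pair was at 0.740, against 0.867 to 0.880 among HFD_Veh libraries, 0.838 to 0.887 among HFD_DPI libraries and 0.753 to 0.838 between ND and HFD libraries. Without ND 2, 3 proteasome genes had an adjusted p under 0.05 in HFD_Veh against ND by edgeR with Benjamini-Hochberg adjustment (Psmd12, Psmd5 and Psme3), in a fit that assumes the lone ND library varies like the other groups, and 568 of all genes did.

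The immunoproteasome genes that the rule left out serve as a comparison. Psmb8, which takes the place of Psmb5, had 140.4 and 213 CPM in ND, 356, 266 and 312 in HFD_Veh and 271, 424, 272 and 179.9 in HFD_DPI, and the HFD_Veh libraries were above ND. Its difference was 0.82 on the log2 scale (standard error 0.37, unadjusted p = 0.0434 by edgeR), and without ND 1 it was 0.55 (unadjusted p = 0.250). The unadjusted p was also above 0.05 without HFD_Veh 1, HFD_Veh 3, HFD_DPI 1 or HFD_DPI 3. Per kb, the share of Psmb8 in the sum of Psmb8 and Psmb5 was 43.3 and 54.1% in ND, 79.8, 60.9 and 70.7% in HFD_Veh and 61.1, 76.3, 71.1 and 60.0% in HFD_DPI. All HFD libraries lay above ND. With the all-exon length the shares were lower, 30.3% and 40.2% in ND and 46.1% to 69.2% in the HFD libraries. The difference was 21.8 percentage points for HFD_Veh against ND (two-sided exact permutation p = 0.20, adjusted 0.48 over 12 tests, where 0.10 is the smallest these groups allow) and 18.4 for HFD_DPI against ND (exact permutation p = 0.133, smallest possible 0.0667). For HFD_DPI against HFD_Veh it was -3.36 (exact permutation p = 0.60, smallest possible 0.0286). These 12 tests, on 3 subunit pairs and the ratio of Psme1 to Psme2, were added after the data were seen. None had an exact permutation p under 0.05. Against ND none could, since the smallest possible p is 0.10 or 0.0667, so these tests cannot tell whether the shares differ from ND.

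Psmb9, which takes the place of Psmb6, had 35.9 and 57.3 CPM in ND, 66.4, 41.5 and 68.4 in HFD_Veh and 85.9, 89.7, 51.95 and 35.5 in HFD_DPI, and its share per kb was 19.1 and 33.9% in ND, 25.6, 15.1 and 29.2% in HFD_Veh and 39.4, 30.2, 28.2 and 19.6% in HFD_DPI. Psmb10, which takes the place of Psmb7, had 105 and 78.6 CPM in ND, 108, 69.5 and 107 in HFD_Veh and 147, 164, 91.5 and 64.5 in HFD_DPI, and its share was 68.8 and 64.3% in ND, 61.4, 58.1 and 64.0% in HFD_Veh and 72.4, 74.1, 63.3 and 57.6% in HFD_DPI. The groups overlapped for Psmb9. For Psmb10 the HFD_Veh shares were below ND, whereas the HFD_DPI shares spread over both. The log2 fold changes for HFD_Veh against ND were 0.33 (standard error 0.45) for Psmb9 and 0.04 (standard error 0.41) for Psmb10, which was -0.27 with library size alone. The ratio of Psme1 to Psme2 per kb was 1.62 and 2.99 in ND, 2.56, 3.04 and 2.32 in HFD_Veh and 3.30, 3.64, 3.55 and 2.33 in HFD_DPI. With the all-exon length it was lower, at 1.05 and 1.93 in ND, 1.5 to 1.96 in HFD_Veh and 1.5 to 2.35 in HFD_DPI.

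A list of 34 other genes of the pathway, for immunoproteasome, assembly, regulation, shuttling and ubiquitin, had 33 in the table, all of them tested. In HFD_Veh against ND, 3 were higher (background 7.76%) and 1 lower (background 5.22%) at an unadjusted p under 0.05 by edgeR, Psmb8 among them, and none had an adjusted p under 0.05. Nfe2l1 had 53.5 and 27.8 CPM in ND, 26.4, 12.2 and 18.6 in HFD_Veh and 16.2, 20.7, 15.8 and 15.8 in HFD_DPI, highest in ND 1. Its difference was -1.10 on the log2 scale (standard error 0.49, unadjusted p = 0.0412 by edgeR), and without ND 1 it was -0.54 (unadjusted p = 0.365). The unadjusted p was also above 0.05 without HFD_Veh 2, HFD_Veh 3, HFD_DPI 1, HFD_DPI 2 or HFD_DPI 3. Nfe2l2, the antioxidant regulator NRF2, had 106 and 81.1 CPM in ND, 172, 226 and 152 in HFD_Veh and 98.01, 92.7, 153 and 239 in HFD_DPI. HFD_Veh was above ND, and HFD_DPI spread widely. The difference was 0.97 on the log2 scale (standard error 0.42, unadjusted p = 0.0367 by edgeR), with 0.79 (unadjusted p = 0.103) without HFD_Veh 2 and 0.82 (unadjusted p = 0.146 by edgeR) without ND 2.

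Uba6, which encodes a ubiquitin-activating enzyme, had 1.82 and 0.934 CPM in ND, 11.99, 5.80 and 6.19 in HFD_Veh and 5.39, 2.38, 5.01 and 17.04 in HFD_DPI, on 10 and 5 counts in ND. Its difference was 2.52 on the log2 scale (standard error 1.04, unadjusted p = 0.0308 by edgeR), and the unadjusted p was 0.0995 without ND 2 and 0.0818 without HFD_Veh 1.

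In HFD_DPI against ND, 2 of the 33 were higher (background 7.13%) and 1 lower (background 3.62%). Ubb, a polyubiquitin gene, had 1268 and 1807 CPM in ND, 1689, 2658 and 2260.2 in HFD_Veh and 2208, 2503, 2593 and 2735 in HFD_DPI. Its difference was 0.71 on the log2 scale (standard error 0.26, unadjusted p = 0.0157 by edgeR), and it was 0.48 (unadjusted p = 0.171) without ND 1. Uba6 was at 2.43 and Nfe2l1 at -1.25 (-0.69, unadjusted p = 0.228, without ND 1). Without ND 2 or without HFD_DPI 4, Uba6 was at 2.07 and 1.63 (unadjusted p = 0.105 and 0.128 by edgeR). In HFD_DPI against HFD_Veh, none of the 33 had an unadjusted p under 0.05 in either direction. The marker sums that separate ND from HFD_Veh, given above, move with these genes too, and their part was not tested.

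By position, 9 of the 46 genes lie on chromosome 11, 6 on chromosome 14 and 6 on chromosome 2, and the rest on 13 other chromosomes. Psmc6, Psmb5, Psme1 and Psme2 are among those on chromosome 14. Of the 46, 12 share exon bases with other genes, and for 5 this is over 10% of their exons.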

How the data were processed

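RNA-seq of sorted liver macrophages gave 9 libraries in 3 groups, taken from the sample labels. The authors deposited 1 table of raw counts per gene, without normalization. The study's methods name bowtie2 and RSEM on mm10 for these counts, and the submitters' processing notes name TopHat2 and edgeR. The strand setting of the counting is not given in the sources used here. Counts were fitted with edgeR 4.0.16 in R 4.3.3 (filterByExpr, TMM, quasi-likelihood test, all 9 libraries in 1 fit, Benjamini-Hochberg adjustment over 11393 genes), and the standard error is the log2 fold change over the square root of F. The code was tested on simulated data with large changes and less spread between libraries than here (common dispersion 0.423). This checks the code only, not how small changes fare in these data. CPM use TMM-adjusted totals. Alternatives were RLE size factors, library size alone, no filter, at least 10 counts in every library, DESeq2 1.42.0, only the groups compared, a replicate block, no Rn45s, and each library left out. Library totals ran from 3534325 to 15585775 counts. By rule, genes named with values in every library were the constitutive catalytic and PA28 genes, members with an unadjusted p under 0.05, the highest and lowest of each class per kb, and members that failed the filter. From the pathway list they were the 3 immunoproteasome genes and those with an unadjusted p under 0.05. Psmc5, Psmd3, Psmd6 and Psmg2 fell outside this rule and were added after their values were seen, and Psma8 also fell outside it. Lengths and positions came from GENCODE M21. The genes and lists were chosen with earlier results of these data known. A gene of the pathway list is not reported here and is left out of its counts.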

Additional observations from a re-analysis of the deposited data

Results flagged for a closer look

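In 4 of the 45 proteasome genes tested (8.89%), 1 HFD_DPI library stood apart from the other 3 by Dixon's test, which flags about 1 group in 20 by chance. Over all 11393 genes tested the share was 7.62%, close to that of the proteasome genes. HFD_DPI 1 was the high library in 3 of the 45 (6.67%) and in 1.76% of all genes. Psma4, an alpha ring gene, was at 116 CPM in HFD_DPI 1 and at 62.0 to 65.0 in the others. Psmc6 was at 78.3 CPM in HFD_DPI 1 against 36.3 to 42.1. Psmd6, a lid gene, was at 66.3 CPM in HFD_DPI 1 against 32.6 to 36.7. Psmb11 was at 16.1 CPM in HFD_DPI 4 against 9.85 to 10.6. HFD_DPI 1 is the deepest library, at 15585775 counts. It also stood above the other HFD_DPI libraries in summed markers of macrophages (44115 CPM against 21090 to 24573), monocytes (2204 against 861 to 1352), Kupffer cells (57.9 against 2.04 to 10.5) and sinusoidal endothelium (123 against 4.27 to 72.7). The part of depth and of these cells in its values was not tested.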

How the results depend on the processing

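With 2 ND libraries, counts against ND depended on each of them. In HFD_Veh against ND, 7 genes had an adjusted p under 0.05 by edgeR. This was 1 with library size alone, 52 without a filter, 1 with at least 10 counts in every library, 312 with DESeq2, 0 with only the groups compared and 0 with the replicate block. With 1 library left out it was 1 to 568. Genes with an unadjusted p under 0.05 in either direction numbered 1479, and 1611 with library size alone. They numbered 866 with at least 10 counts in every library and 1096 to 1457 with 1 HFD library left out. Proteasome genes with an adjusted p under 0.05 numbered 0, 1 with DESeq2 and 0 to 3 with 1 library left out. At an unadjusted p, 3 were higher, 1 with library size alone, 1 with only the groups compared and 1 to 10 with 1 library left out. None was lower, 2 with library size alone and 0 to 1 with 1 library left out.

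In HFD_DPI against HFD_Veh, 0 genes had an adjusted p under 0.05 and 2 with DESeq2. At an unadjusted p there were 470, 753 without a filter and 212 to 761 with 1 library left out. Proteasome genes that were higher numbered 0, 1 with the replicate block (Psmc5) and 0 to 1 with 1 library left out.

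In HFD_DPI against ND, 1 gene had an adjusted p under 0.05, 22 without a filter, 219 with DESeq2, 0 with only the groups compared, 0 with the replicate block and 1 to 572 with 1 library left out. At an unadjusted p there were 1224, 687 with at least 10 counts in every library and 894 to 2689 with 1 library left out. Proteasome genes with an adjusted p under 0.05 numbered 0, 1 with DESeq2 and 0 to 2 with 1 library left out. At an unadjusted p, 6 were higher, 3 with library size alone and 3 to 10 with 1 library left out, and none was lower, 1 with library size alone and 0 to 1 with 1 library left out.

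Proteasome genes without overlap and higher went from 11 to 2 in HFD_Veh against ND and from 10 to 4 in HFD_DPI against ND with library size alone, and those lower in the latter from 2 to 5. Over all genes the higher share went from 15% to 10.1% and from 11.7% to 8.44%. In HFD_DPI against HFD_Veh they went from 2 to 1 higher and from 1 to 0 lower with RLE size factors, and likewise to 1 and 0 with library size alone. Without Rn45s the mean summed CPM was 4825 in place of 3175. The median of the proteasome genes in HFD_Veh against ND was -0.09 with library size alone, where the median of all genes was -0.26.

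Over the named genes with an unadjusted p under 0.05, 199 of 269 alternative values kept direction and threshold, 70 lost the threshold and 0 changed sign. Of the 844 others, 35 changed sign and 25 passed the threshold, among them Psme1 in HFD_Veh against ND with the replicate block and without ND 2, HFD_DPI 2 or HFD_DPI 4. With library size alone, the log2 fold change was -0.27 for Psmb10 and -0.22 for Psmc5 in HFD_Veh against ND, 0.0069 for Psmd11 and 0.035 for Uba6 in HFD_DPI against HFD_Veh, and -0.023 for Psmb6 in HFD_DPI against ND. With the replicate block it was 0.11 for Psmd11 and 0.0049 for Psmb8 in HFD_DPI against HFD_Veh. With 1 library left out, values in HFD_Veh against ND ran from -2.37 to 2.67 for Psme3, -0.13 to 0.27 for Psmb10, -0.17 to 0.37 for Psmc5 and -0.63 to 0.47 for Psmd6. In HFD_DPI against HFD_Veh they ran from -0.23 to 0.21 for Psmc6, -0.35 to 0.39 for Psmd11, -0.016 to 0.27 for Psme1, -0.038 to 0.089 for Psma2, -0.17 to 0.29 for Psmb5, -0.38 to 0.049 for Psmb8, -0.038 to 0.37 for Psmb9, -0.40 to 0.15 for Nfe2l1, -0.89 to 0.32 for Uba6, -0.17 to 0.80 for Psmg2 and -0.094 to 0.21 for Psmd3. In HFD_DPI against ND Psme3 ran from -2.07 to 2.97. The cause was not tested.

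Replicate numbers were shared between groups, but same-numbered libraries deviated together little (7 pairs, correlations of -0.022 to 0.084, against -0.084 to 0.061 for the other 19), so they were not taken as pairs.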
